A study of Homo sapiens with 15 samples.

Results

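The genes described here are 38 genes of glucose breakdown and of the cell's response to low oxygen, chosen by name from textbook pathway membership out of 33367 named genes listed in the libraries. They fall into 21 glycolytic enzymes and transporters of glucose or lactate, 15 genes known as targets of the hypoxia-inducible factor (HIF), and the 2 HIF subunits HIF1A and ARNT. All libraries come from Reh, a B-lymphoblastic leukemia line in which 1 copy of ETV6 is fused to RUNX1 and the normal copy is deleted. ETV6 belongs to the ETS transcription factors and mostly represses its targets, and ERG is another member of that family that is known mainly as an activator. The study has 5 groups of 3 libraries in 2 experiments. In the induction experiment, Reh populations carried a doxycycline-inducible transgene. It encoded V5-tagged wild-type ETV6 (ETV6_WT), V5-tagged ETV6 with the R399C change in its DNA-binding domain (ETV6_R399C) or the fluorescent protein tagBFP as the control. All 9 of these libraries, the tagBFP controls included, came from cells given 500 ng/ml doxycycline for 48 hours. In the interference experiment, Reh populations with doxycycline-inducible dCas9-KRAB, a silencing protein that is steered to DNA by a guide RNA, carried a guide against the ERG promoter (sgERG) or a non-targeting guide (sgCtrl). Those 6 libraries came from sorted cells given 500 ng/ml doxycycline for 72 hours, again in both arms. Every group is thus a vector-transduced population of 1 cell line, and whether the replicates are separate cultures is not given in the sources used here.

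Glycolysis splits glucose into pyruvate in the cytosol, and lactate dehydrogenase can then turn pyruvate into lactate, which leaves the cell through monocarboxylate transporters. HIF is a pair of proteins whose alpha subunit is marked for destruction by oxygen-dependent prolyl hydroxylases; when oxygen is low, the pair binds a short DNA element beside genes of glycolysis, blood vessel growth, collagen processing and mitochondrial turnover. Many glycolytic enzymes are also known targets of MYC, and leukemic B-cell precursors are known to use glycolysis while they divide. The cells of these experiments were cultured without any stated change in oxygen.

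The libraries held 22040338 to 52481351 estimated reads each. ETV6 averaged 486 ± 18.1 CPM (counts scaled to equal library sizes) in ETV6_WT libraries, 373 ± 14.7 CPM in ETV6_R399C and 5.86 ± 0.327 CPM in tagBFP (SD, n = 3 each). ERG averaged 105.1 ± 4.14 CPM in sgERG against 525 ± 6.35 CPM in sgCtrl (SD, n = 3 each). The amounts of ETV6 and ERG RNA thus followed the labels. Sums per gene cannot show the R399C change, tagBFP or the guides, so these were not checked. ETV6 and ERG each also moved in the other experiment. ETV6 averaged 6.56 ± 0.513 CPM in sgERG against 13.2 ± 1.25 CPM in sgCtrl (SD, n = 3 each; log2 fold change -1.004, edgeR adjusted p = 6.98e-05), and ERG 328 ± 7.09 CPM in ETV6_WT against 302 ± 5.46 CPM in tagBFP (log2 fold change 0.12, edgeR adjusted p = 0.0032). Of 10 B-lineage markers, 9 were above 1 TPM (a level scaled for transcript length as well) in every library and VPREB1 was at 0. The 4 T-cell markers summed to 0 to 1.151 TPM and the 4 erythroid markers to 0 to 0.4392 TPM, while myeloid markers summed to 16.06 to 25.33 TPM, mostly CSF1R and ITGAM, and COL1A1 reached 33.15 TPM. B-lineage markers moved with the groups, with 8 of 9 tested higher in ETV6_WT and 8 of 9 higher in ETV6_R399C than in tagBFP, and with 1 higher and 4 lower in sgERG than in sgCtrl. Over all genes tested, 17.6% were higher in ETV6_WT and 18.8% in ETV6_R399C, and 6.89% were higher and 7.74% lower in sgERG. The part of these markers in the results below was not tested. In bulk libraries, fewer cells of a type and less RNA per cell cannot be told apart. Library 3 of sgERG stood lower than the others of its group for several hypoxia genes, and library 3 of ETV6_R399C stood higher for most glycolytic enzymes, as the values below show.

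Most of the glycolytic pathway was lower where ETV6 was expressed. Of the 21 glycolytic enzymes and transporters, 15 were lower and 4 higher in ETV6_WT than in tagBFP, and 15 were lower and 2 higher in ETV6_R399C than in tagBFP, at an adjusted p under 0.05. Both comparisons use the same 3 tagBFP libraries. Adjusted p-values come from the quasi-likelihood test of edgeR, adjusted after Benjamini and Hochberg over all genes tested. Among all 14242 genes tested, 36.5% were called in the ETV6_WT comparison, 17.6% higher and 18.9% lower, and 40.9% in the ETV6_R399C comparison, 18.8% higher and 22.1% lower. The median log2 fold change of the 21 members was -0.268 with ETV6_WT and -0.348 with ETV6_R399C, beside -0.001 over all genes tested in each comparison. Without library 1 or without library 2 of tagBFP, 1 member was higher in ETV6_WT, and without library 2 or without library 3 of ETV6_WT, 2 were; in ETV6_R399C 1 was higher without its library 2 or without library 2 or 3 of tagBFP. The changes were small, and the lowest and highest log2 fold changes were -0.473 and 0.627 with ETV6_WT and -0.572 and 0.703 with ETV6_R399C.

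**Figure D1:**
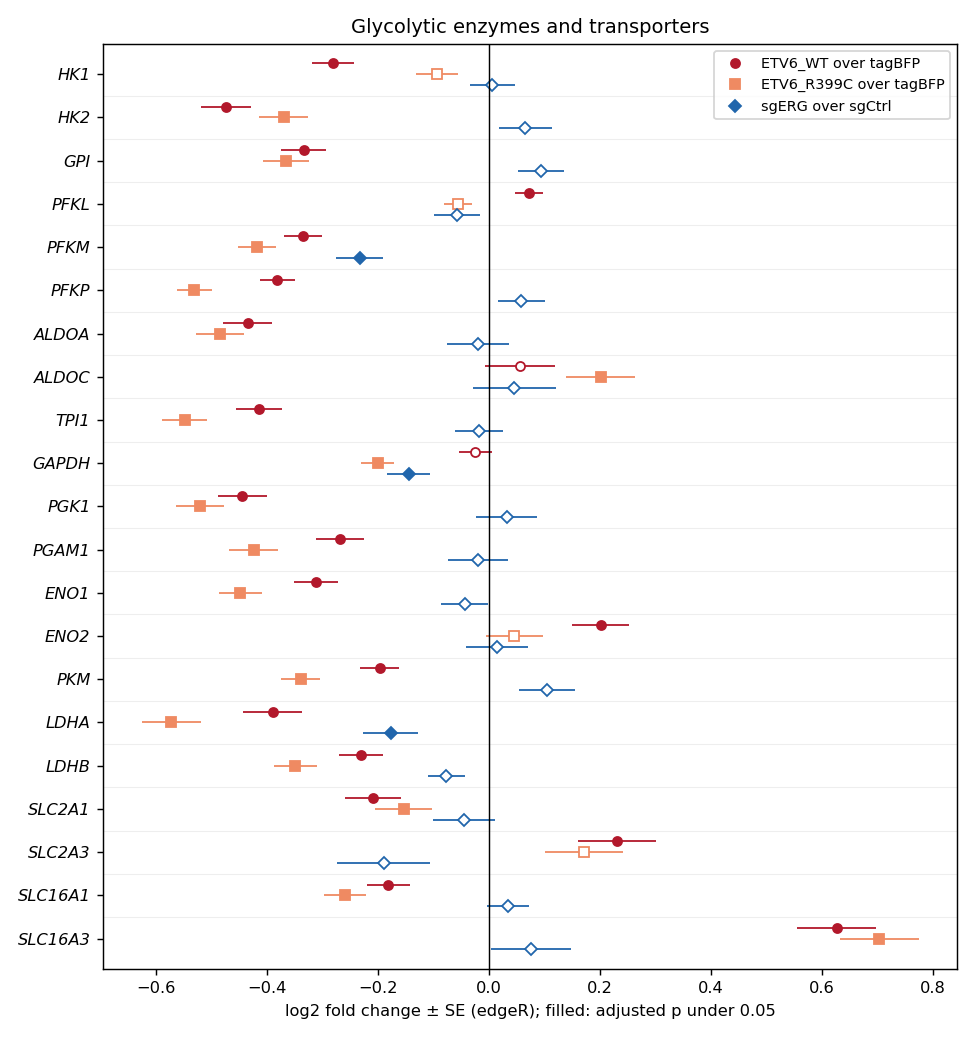
Log2 fold changes with standard errors for the 21 glycolytic enzymes and transporters, in the order of the pathway, in ETV6_WT over tagBFP (circles), ETV6_R399C over tagBFP (squares) and sgERG over sgCtrl (diamonds). Filled symbols have an edgeR adjusted p under 0.05. Most circles and squares lie left of 0, with SLC16A3 at 0.63 and 0.70. Open diamonds number 18 of 21, and the 14.3% called with sgERG lies near the 14.6% of all genes.

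The pathway begins with glucose entry and hexokinase. SLC2A1, the glucose transporter GLUT1, was lower with both forms, at -0.21 ± 0.051 (edgeR adjusted p = 0.00738) with ETV6_WT and -0.15 ± 0.051 (edgeR adjusted p = 0.0306) with ETV6_R399C on the log2 scale, with standard errors. Of 12 alternatives (6 other settings of the fit and 6 fits with 1 library left out), 1 ended the ETV6_WT call and 4 the ETV6_R399C call. SLC2A3, the high-affinity transporter GLUT3, was higher with ETV6_WT at 0.23 ± 0.070 (edgeR adjusted p = 0.0232), a call lost in 5 of 12 alternatives, and had 0.17 ± 0.070 (edgeR adjusted p = 0.0726) with ETV6_R399C. Reads of named SLC2A3 pseudogenes came to at most 20.75% of the gene's own reads, so its level is uncertain. The rise was not in its protein-coding transcripts, which averaged 5.11 ± 0.827 TPM in ETV6_WT against 7.04 ± 0.931 TPM in tagBFP (SD, n = 3 each). That is a fall (two-sided exact permutation p = 0.1, the smallest possible here), and their share of the gene's TPM was 41.3% against 69.2%. In ETV6_R399C they averaged 8.60 ± 0.732 TPM (exact permutation p = 0.2 against tagBFP). HK2, a hexokinase isoform that is high in many tumours (chr2:74833981-74893359, plus strand), had 78.8, 78.9 and 85.2 CPM in the ETV6_WT libraries, 88.1, 84.7 and 88.1 CPM in ETV6_R399C and 119, 110.5 and 107.4 CPM in tagBFP. All 6 ETV6 libraries lay below all 3 tagBFP libraries, and the 2 ETV6 forms overlapped. The log2 fold change of HK2 was -0.47 ± 0.044 (edgeR adjusted p = 8.61e-06) with ETV6_WT and -0.37 ± 0.044 (edgeR adjusted p = 5.32e-05) with ETV6_R399C. HK1, the housekeeping hexokinase, had 84.2, 80.3 and 80.3 CPM in the ETV6_WT libraries, 90.7, 91.5 and 96.6 CPM in ETV6_R399C and 102.98, 96.4 and 97.8 CPM in tagBFP. Its ETV6_WT libraries were below every other library of the experiment, at -0.28 ± 0.038 (edgeR adjusted p = 0.000146) against tagBFP, while ETV6_R399C overlapped tagBFP at -0.09 ± 0.038 (edgeR adjusted p = 0.0701). GPI, which turns glucose 6-phosphate into fructose 6-phosphate, was 1.26-fold below tagBFP with ETV6_WT (edgeR adjusted p = 6.71e-05) and 1.29-fold below it with ETV6_R399C (edgeR adjusted p = 3.13e-05).

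The 3 phosphofructokinase genes, which encode the committed step, did not move alike. PFKP, the platelet-type subunit (chr10:3066333-3137712, plus strand), had 191, 181 and 188 CPM in the ETV6_WT libraries, 165, 167 and 173 CPM in ETV6_R399C and 239, 250.4 and 239 CPM in tagBFP. The 3 groups were separate, with ETV6_R399C lowest and tagBFP highest, at -0.38 ± 0.031 (edgeR adjusted p = 2.81e-06) with ETV6_WT and -0.53 ± 0.032 (edgeR adjusted p = 2.71e-07) with ETV6_R399C. PFKM, the muscle-type subunit, had 160.4, 160.4 and 163 CPM in the ETV6_WT libraries, 146, 152 and 159 CPM in ETV6_R399C and 199.9, 199 and 211 CPM in tagBFP, again with all ETV6 libraries below tagBFP. Its log2 fold changes were -0.33 ± 0.035 (edgeR adjusted p = 1.95e-05) and -0.42 ± 0.035 (edgeR adjusted p = 3.73e-06), in the same order of comparisons. PFKM lies across the oppositely transcribed gene SENP1, and the strand setting of the counting is not given in the sources used here. PFKL, the liver-type subunit, had 0.07 with ETV6_WT (edgeR adjusted p = 0.0401), a call that 10 of 12 alternatives ended, and -0.06 with ETV6_R399C (edgeR adjusted p = 0.103).

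In the middle of the pathway, aldolase A and triosephosphate isomerase were lower in all 6 ETV6 libraries. ALDOA, which splits fructose 1,6-bisphosphate, had 338, 331 and 330.3 CPM in the ETV6_WT libraries, 311, 306 and 348 CPM in ETV6_R399C and 442, 439.6 and 468 CPM in tagBFP. TPI1, which interconverts the 2 triose phosphates (chr12:6867119-6870948, plus strand), had 266, 259 and 262 CPM in the ETV6_WT libraries, 232, 226 and 258 CPM in ETV6_R399C and 347, 347 and 353 CPM in tagBFP. For both genes tagBFP stood apart above the ETV6 forms, which overlapped for ALDOA and not for TPI1. ALDOA had log2 fold changes of -0.43 ± 0.044 (edgeR adjusted p = 1.61e-05) with ETV6_WT and -0.48 ± 0.044 (edgeR adjusted p = 7.16e-06) with ETV6_R399C, and TPI1 had -0.41 ± 0.041 (edgeR adjusted p = 1.31e-05) and -0.55 ± 0.041 (edgeR adjusted p = 1.74e-06). ALDOC, the brain-type aldolase, was the exception among the aldolases, with 0.06 with ETV6_WT (edgeR adjusted p = 0.531) and 0.20 with ETV6_R399C (edgeR adjusted p = 0.0228, lost in 4 of 12 alternatives). ALDOA, ALDOC and ENO2 each share their strand and position with a second annotated gene, and TPI1 overlaps SPSB2 on the other strand, so part of their reads may be assigned to a neighbour.

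GAPDH, the most abundant member, differed between the ETV6 forms. It had 3717, 3687 and 3685 CPM in the ETV6_WT libraries, 3218, 3198 and 3401 CPM in ETV6_R399C and 3709, 3684 and 3886 CPM in tagBFP. ETV6_WT overlapped tagBFP at -0.02 ± 0.030 (edgeR adjusted p = 0.573), whereas ETV6_R399C lay below both other groups at -0.20 ± 0.030 (edgeR adjusted p = 0.000273) against tagBFP. PGK1, which makes the first ATP of the pathway (chrX:77910739-78129296, plus strand), had 171, 177 and 176 CPM in the ETV6_WT libraries, 159, 161 and 177 CPM in ETV6_R399C and 236, 227 and 249 CPM in tagBFP. Both forms were below tagBFP, at -0.44 ± 0.044 (edgeR adjusted p = 1.29e-05) and -0.52 ± 0.044 (edgeR adjusted p = 4.05e-06). PGAM1, the mutase, had 275, 287 and 286 CPM in the ETV6_WT libraries, 242, 247 and 274 CPM in ETV6_R399C and 336, 334 and 353 CPM in tagBFP, with log2 fold changes of -0.27 ± 0.043 (edgeR adjusted p = 0.000536) with ETV6_WT and -0.42 ± 0.043 (edgeR adjusted p = 1.72e-05) with ETV6_R399C. ENO1, the ubiquitous enolase, had 1322, 1312 and 1308 CPM in the ETV6_WT libraries, 1149, 1153 and 1286 CPM in ETV6_R399C and 1634, 1596 and 1661 CPM in tagBFP. Its 3 groups did not overlap. ENO1 was 1.24-fold lower with ETV6_WT (edgeR adjusted p = 8.63e-05) and 1.36-fold lower with ETV6_R399C (edgeR adjusted p = 5.44e-06). ENO2, the neuronal enolase, went the other way with ETV6_WT at 0.20 ± 0.051 (edgeR adjusted p = 0.00896), and had 0.05 ± 0.051 (edgeR adjusted p = 0.521) with ETV6_R399C. The ENO2 difference with ETV6_WT was -0.005 when average transcript lengths entered the fit (edgeR adjusted p = 0.981), and the call was also lost without library 1 or library 2 of tagBFP.

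PKM makes pyruvate and has 2 alternative exons of equal length. Exon 9 gives the M1 form of pyruvate kinase, typical of muscle and brain, and exon 10 gives the M2 form, typical of dividing cells. The exons are shown because assignment of reads to either form rests on them. Exon 9 is at chr15:72203022-72203188 and exon 10 at chr15:72202454-72202620, both on the minus strand of hg38 in GENCODE release 29 and both coding. They are 167 bases each, 62.9% of the bases are the same in both, and capitals mark the 62 positions that differ.
PKM exon 9 (M1): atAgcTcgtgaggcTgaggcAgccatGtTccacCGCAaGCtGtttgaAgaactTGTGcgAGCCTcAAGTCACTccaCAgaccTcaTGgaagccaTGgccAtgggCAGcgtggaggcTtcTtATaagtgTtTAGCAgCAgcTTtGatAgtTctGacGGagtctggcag
PKM exon 10 (M2): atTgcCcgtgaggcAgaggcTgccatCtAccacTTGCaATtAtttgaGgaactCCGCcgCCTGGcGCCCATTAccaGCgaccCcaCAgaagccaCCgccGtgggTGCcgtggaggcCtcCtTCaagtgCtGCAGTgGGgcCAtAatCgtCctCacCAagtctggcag
Transcripts that hold exon 10 summed to 522 ± 3.02 TPM in ETV6_WT, 499.9 ± 16.6 TPM in ETV6_R399C and 593 ± 18.6 TPM in tagBFP, and to 1157 ± 42.7 TPM in sgERG and 1053 ± 55.2 TPM in sgCtrl (SD, n = 3 each). Transcripts that hold exon 9 summed to 25.8 ± 1.80 TPM in ETV6_WT, 25.4 ± 3.95 TPM in ETV6_R399C and 29.8 ± 0.534 TPM in tagBFP, and to 18.6 ± 0.996 TPM in sgERG and 16.7 ± 0.366 TPM in sgCtrl. The M2 exon thus carried nearly all of the signal that tells the forms apart in every library. As a percentage of the TPM with either exon, the M1 form took 4.67, 5.05 and 4.41 in ETV6_WT, 4.74, 4.30 and 5.41 in ETV6_R399C and 4.70, 4.86 and 4.79 in tagBFP, and 1.498, 1.65 and 1.61 in sgERG and 1.64, 1.48 and 1.56 in sgCtrl. These shares overlapped between the groups of each experiment. For the M2 sum, ETV6_WT and ETV6_R399C each stood apart below tagBFP (two-sided exact permutation p = 0.1 each, the smallest that 3 against 3 allows), while sgERG and sgCtrl overlapped (exact permutation p = 0.2). For the M1 sum, ETV6_WT stood apart below tagBFP and sgERG apart above sgCtrl (exact permutation p = 0.1 each), while ETV6_R399C overlapped tagBFP (exact permutation p = 0.2). Over the whole gene, PKM had 1258, 1234 and 1243 CPM in the ETV6_WT libraries, 1098, 1087 and 1198 CPM in ETV6_R399C and 1441, 1399.9 and 1438 CPM in tagBFP. ETV6_R399C was lowest and tagBFP highest, with no overlap, and PKM was at -0.20 ± 0.035 (edgeR adjusted p = 0.00101) with ETV6_WT and -0.34 ± 0.035 (edgeR adjusted p = 1.74e-05) with ETV6_R399C.

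At the end of the pathway, both lactate dehydrogenase genes and one lactate exporter fell, and the other exporter rose. LDHA, the subunit that favours lactate production (chr11:18394388-18408425, plus strand), had 479, 457 and 468 CPM in the ETV6_WT libraries, 392, 397 and 448 CPM in ETV6_R399C and 589.5, 595 and 655 CPM in tagBFP. The 3 groups were separate, with ETV6_R399C lowest, at -0.39 ± 0.053 (edgeR adjusted p = 0.000147) with ETV6_WT and -0.57 ± 0.053 (edgeR adjusted p = 7.99e-06) with ETV6_R399C. LDHB, the subunit that favours pyruvate, had -0.23 and -0.35 (edgeR adjusted p = 0.000769 and 3.37e-05), and SLC16A1, the transporter MCT1, had -0.18 and -0.26 (edgeR adjusted p = 0.00311 and 0.000244), each with ETV6_WT first. SLC16A3, the lactate exporter MCT4 and a known HIF target (chr17:82228397-82261129, plus strand), had 11.1, 10.9 and 11.8 CPM in the ETV6_WT libraries, 12.1, 12.4 and 11.2 CPM in ETV6_R399C and 7.41, 7.27 and 7.21 CPM in tagBFP. All 6 ETV6 libraries were above all 3 tagBFP libraries, by 0.63 ± 0.071 (edgeR adjusted p = 3.95e-05) with ETV6_WT and 0.70 ± 0.071 (edgeR adjusted p = 1.55e-05) with ETV6_R399C. SLC16A3 had the largest change in size among the 21 in both comparisons, at a level of 7.21 to 12.4 CPM, and it overlaps CSNK1D on the other strand.

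MYC, a transcription factor known to bind many glycolytic genes, is not one of the 38 and moved beside them. It had 338, 353 and 356 CPM in the ETV6_WT libraries, 347, 342 and 357 CPM in ETV6_R399C and 486, 487 and 469.7 CPM in tagBFP, and 557, 585 and 644 CPM in the sgERG libraries and 543, 575 and 517 CPM in sgCtrl. MYC was lower in every ETV6 library than in every tagBFP library, whereas sgERG overlapped sgCtrl. Its part in the glycolytic values was not tested.

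The 2 ETV6 forms differed by little in glycolysis. ETV6 itself was higher in ETV6_WT than in ETV6_R399C, by 0.38 ± 0.036 on the log2 scale (edgeR adjusted p = 2.48e-05). In every comparison between the forms, the amount of ETV6 RNA and the R399C change therefore cannot be told apart. Of the 21 members, 8 were higher and 1 lower in ETV6_WT than in ETV6_R399C, against 12.1% higher and 9.29% lower among all 14242 genes (21.4% in all). The median was 0.082 on the log2 scale, beside 0.02 over all genes. GAPDH at 0.18 ± 0.030 (edgeR adjusted p = 0.00178), LDHA at 0.18 ± 0.053 (edgeR adjusted p = 0.0307), PGAM1 at 0.16 ± 0.044 (edgeR adjusted p = 0.0262) and PFKP at 0.15 ± 0.032 (edgeR adjusted p = 0.00665) were higher with ETV6_WT. PFKL at 0.13, TPI1 at 0.13, ENO1 at 0.14 and PKM at 0.14 were the other higher calls. Of these 8, GAPDH and PFKL kept the call in all 12 alternatives and the other 6 lost it in 2 to 8 of them. HK1 was lower with ETV6_WT, at -0.19 ± 0.038 (edgeR adjusted p = 0.00517). The count of higher members rested on single libraries. It was 13 without library 3 of ETV6_R399C, 2 without library 1 of ETV6_WT, 3 without library 2 and 4 without library 3 of that group, and 3 without either library 1 or library 2 of ETV6_R399C.

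With ERG silenced, 14.3% of the glycolytic members were called, near the 14.6% of all genes. Of the 21 members, 3 were lower and 0 higher in sgERG than in sgCtrl by edgeR's quasi-likelihood test, against 7.74% lower and 6.89% higher among 13464 genes (14.6% in all), and the median was -0.017 beside 0.001 over all genes. DESeq2 also called 0 higher, and 1 was higher at an unadjusted edgeR p under 0.05. PFKM had 139.9, 138 and 149 CPM in the sgERG libraries and 168, 169 and 164 CPM in sgCtrl, and the groups did not overlap. Its log2 fold change was -0.23 ± 0.042 (edgeR adjusted p = 0.00446). LDHA had 625, 598 and 556 CPM in the sgERG libraries and 643, 693 and 674 CPM in sgCtrl, at -0.18 ± 0.049 (edgeR adjusted p = 0.0363). GAPDH had 3131, 3092 and 3318 CPM in the sgERG libraries and 3439.8, 3586 and 3517 CPM in sgCtrl, at -0.14 ± 0.038 (edgeR adjusted p = 0.0307). Both were separate but close, and LDHA lost its call in 5 and GAPDH in 6 of 12 alternatives. The count of lower members was 1 without library 2 of sgERG or without any one of the 3 sgCtrl libraries, with PFKM the member called in all 12 alternatives. HK2 had 243, 234 and 236 CPM in the sgERG libraries and 213, 228 and 239.7 CPM in sgCtrl, PGK1 had 178, 175 and 162 CPM in the sgERG libraries and 156, 174 and 173 CPM in sgCtrl and SLC16A3 had 17.1, 16.4 and 19.0 CPM in the sgERG libraries and 17.0, 16.1 and 16.6 CPM in sgCtrl, and each overlapped between the groups.

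Genes around glycolysis were counted in the same fits. Among all genes tested, 36.5% were called in ETV6_WT (17.6% higher, 18.9% lower) and 40.9% in ETV6_R399C (18.8% higher, 22.1% lower). With sgERG 14.6% were called (6.89% higher, 7.74% lower). In the order of the lists below, 52.9%, 90% and 70.4% were called with ETV6_WT and 52.9%, 60% and 70.4% with ETV6_R399C. The sgERG shares were 5.88%, 0% and 14.8%, near or below the background. Of 17 tested genes, out of 26 analysed here for glycogen, fructose and regulatory steps, 3 were higher and 6 lower in ETV6_WT, 2 higher and 7 lower in ETV6_R399C, each against tagBFP, and 0 higher (also 0 by DESeq2 and at an unadjusted edgeR p under 0.05) and 1 lower in sgERG against sgCtrl. G6PC3, a glucose 6-phosphatase, had -0.26 ± 0.039 (edgeR adjusted p = 0.000378) with ETV6_WT and -0.36 ± 0.039 (edgeR adjusted p = 2.65e-05) with ETV6_R399C, and BSG, the chaperone of the monocarboxylate transporters, had -0.15 ± 0.033 (edgeR adjusted p = 0.00354) with ETV6_WT and -0.33 ± 0.033 (edgeR adjusted p = 1.3e-05) with ETV6_R399C. PGM2L1, which makes glucose 1,6-bisphosphate, rose with both forms, at 0.36 and 0.36, and SLC2A5, a fructose transporter, rose with ETV6_WT at 0.59 ± 0.10 (edgeR adjusted p = 0.000874). The 1 call with sgERG was GBE1, the glycogen branching enzyme, at -0.36 ± 0.058 (edgeR adjusted p = 0.00204). In the pentose phosphate pathway, which branches off at glucose 6-phosphate, 9 of 10 tested genes were lower in ETV6_WT, 6 of 10 in ETV6_R399C and 0 in sgERG, and 0 of 10 were higher in these 3 comparisons by edgeR or DESeq2. At an unadjusted edgeR p under 0.05, 3 were higher in sgERG, 0 were lower there, and 0 were higher with either ETV6 form; DESeq2 also called 0 lower in sgERG. In pyruvate oxidation and the citrate cycle, 19 of 27 tested genes were lower and 0 higher in ETV6_WT, 18 lower and 1 higher in ETV6_R399C, and 3 lower and 1 higher in sgERG; the 0 for ETV6_WT was the same by DESeq2 and at an unadjusted edgeR p under 0.05. MDH2, a malate dehydrogenase, was at -0.40 ± 0.029 (edgeR adjusted p = 9.66e-07) with ETV6_WT and -0.37 ± 0.029 (edgeR adjusted p = 2.39e-06) with ETV6_R399C, and MPC1, part of the mitochondrial pyruvate carrier, at -0.44 ± 0.052 (edgeR adjusted p = 5.62e-05) and -0.42 ± 0.052 (edgeR adjusted p = 6.63e-05). With sgERG, SUCLA2 had -0.33, PDP2 -0.26, DLD -0.18 and SDHA 0.14. Between the ETV6 forms, BSG at 0.18, SLC2A5 at 0.48 and PGM2 at 0.15 were higher with ETV6_WT, and PRPS1, PGD and H6PD were lower, at -0.18, -0.14 and -0.26.

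**Figure D2:**
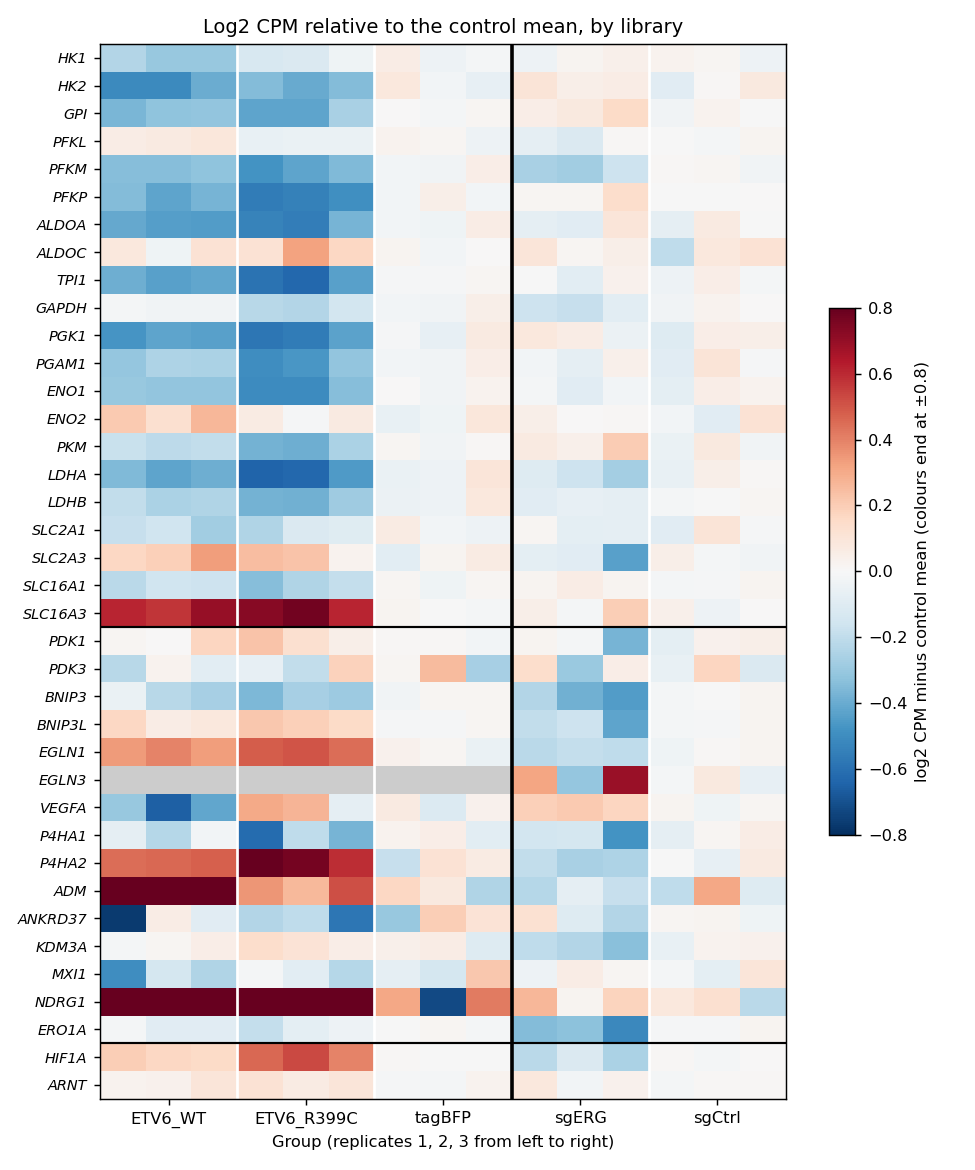
Log2 CPM of each of the 38 genes in each of the 15 libraries relative to the mean of the control of the same experiment (tagBFP for the 9 libraries on the left, sgCtrl for the 6 on the right), with black lines between the glycolytic, hypoxia-response and HIF subunit genes and grey for EGLN3, which was not tested in the induction experiment. The glycolytic rows are mostly blue under ETV6_WT and ETV6_R399C and pale under sgERG, and BNIP3, BNIP3L, EGLN1, KDM3A and ERO1A are blue under sgERG.

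The HIF subunits came next. HIF1A, the oxygen-regulated alpha subunit (chr14:61695513-61748259, plus strand), had 158, 155 and 154 CPM in the ETV6_WT libraries, 190.3, 199 and 182 CPM in ETV6_R399C and 139, 138 and 138 CPM in tagBFP. The 3 groups were separate, with ETV6_R399C highest and tagBFP lowest. Its log2 fold change was 0.17 ± 0.033 (edgeR adjusted p = 0.00166) with ETV6_WT, 0.46 ± 0.033 (edgeR adjusted p = 1.03e-06) with ETV6_R399C and -0.29 ± 0.033 (edgeR adjusted p = 9.98e-05) for ETV6_WT over ETV6_R399C. In the interference experiment HIF1A had 159, 170.2 and 154 CPM in the sgERG libraries and 186, 182 and 185 CPM in sgCtrl, with every sgERG library lower, at -0.19 ± 0.044 (edgeR adjusted p = 0.0146). That call was lost in 3 of 12 alternatives, with average transcript lengths in the fit (edgeR adjusted p = 0.233) and without library 1 or library 3 of sgCtrl, and the ETV6_WT call against tagBFP was lost with those lengths (edgeR adjusted p = 0.105). ARNT, the constant partner subunit, had 64.5, 64.8 and 67.8 CPM in the ETV6_WT libraries, 68.6, 66.4 and 67.7 CPM in ETV6_R399C and 62.9, 62.6 and 64.6 CPM in tagBFP. Its ETV6_R399C libraries were above tagBFP by 0.09 ± 0.033 (edgeR adjusted p = 0.0375), a call that 9 of 12 alternatives ended, and ETV6_WT had 0.05 ± 0.033 (edgeR adjusted p = 0.238). With 77.9, 72.3 and 75.0 CPM in the sgERG libraries and 72.6, 73.8 and 73.8 CPM in sgCtrl, ARNT overlapped between the guides. These are RNA levels, and HIF1A is known to be controlled mainly through the stability of its protein.

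The hypoxia-response genes, like all genes tested, had calls in both directions when ETV6 was expressed. Of 15, 14 passed the filter on low counts in the induction experiment. In ETV6_WT 5 were higher and 2 lower than in tagBFP, with a median log2 fold change of -0.026. In ETV6_R399C 4 were higher and 2 lower, with a median of 0.118. Of those tested, 50% were called with ETV6_WT, beside 36.5% of all genes. With ETV6_R399C 42.9% were called, beside 40.9% of all genes, so that count lies near the background. Without library 3 of ETV6_WT, 1 was lower in ETV6_WT than in tagBFP. EGLN3, a prolyl hydroxylase, was the gene left out, with 0 to 3 estimated reads in each of the 9 libraries.

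**Figure D3:**
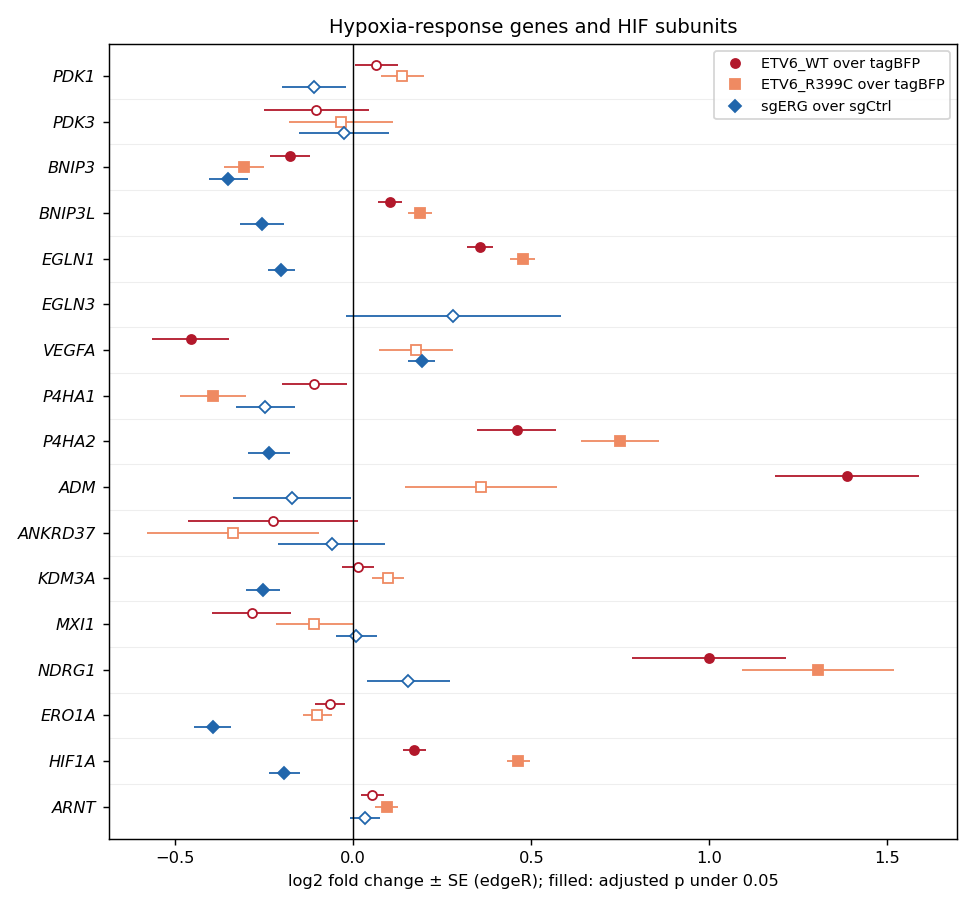
Log2 fold changes with standard errors for the 15 hypoxia-response genes and the 2 HIF subunits, in ETV6_WT over tagBFP (circles), ETV6_R399C over tagBFP (squares) and sgERG over sgCtrl (diamonds), with filled symbols for an edgeR adjusted p under 0.05. EGLN1, P4HA2 and HIF1A have filled circles and squares right of 0 and filled diamonds left of 0.

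EGLN1, the main prolyl hydroxylase that marks HIF1A for destruction (chr1:231363751-231425044, minus strand), had 55.9, 57.9 and 55.4 CPM in the ETV6_WT libraries, 61.6, 62.4 and 60.05 CPM in ETV6_R399C and 45.0, 44.6 and 42.5 CPM in tagBFP. All 6 ETV6 libraries lay above tagBFP, and the 3 groups were separate. Its log2 fold change was 0.36 ± 0.036 (edgeR adjusted p = 1.64e-05) with ETV6_WT and 0.48 ± 0.036 (edgeR adjusted p = 1.81e-06) with ETV6_R399C. P4HA2, a collagen prolyl hydroxylase (chr5:132191838-132295315, minus strand), had 6.44, 6.48 and 6.57 CPM in the ETV6_WT libraries, 8.69, 8.01 and 7.09 CPM in ETV6_R399C and 4.15, 5.12 and 4.94 CPM in tagBFP. Every ETV6 library was above every tagBFP library, by 0.46 ± 0.11 (edgeR adjusted p = 0.00696) and 0.75 ± 0.11 (edgeR adjusted p = 0.000227) with ETV6_WT first. With average transcript lengths in the fit, neither P4HA2 call held (edgeR adjusted p = 0.28 and 0.062). P4HA1, the other collagen prolyl hydroxylase of the set, had 20.7, 18.5 and 21.4 CPM in the ETV6_WT libraries, 14.2, 18.9 and 16.8 CPM in ETV6_R399C and 22.2, 22.6 and 20.55 CPM in tagBFP. It overlapped tagBFP in ETV6_WT at -0.11 ± 0.091 (edgeR adjusted p = 0.389) and lay below it in ETV6_R399C at -0.39 ± 0.093 (edgeR adjusted p = 0.00538).

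NDRG1, a stress-induced gene that is strongly induced by hypoxia in many cells, had 6.44, 6.05 and 6.97 CPM in the ETV6_WT libraries, 7.72, 8.54 and 7.82 CPM in ETV6_R399C and 3.80, 1.86 and 4.09 CPM in tagBFP. Every ETV6 library was above every tagBFP library at these low levels, and library 2 of tagBFP was the lowest. Its log2 fold change was 1.00 ± 0.22 (edgeR adjusted p = 0.00363) with ETV6_WT and 1.31 ± 0.21 (edgeR adjusted p = 0.000497) with ETV6_R399C. ADM, the vasodilator peptide adrenomedullin, averaged 2.26 ± 0.269 CPM in ETV6_WT, 1.102 ± 0.1002 CPM in ETV6_R399C and 0.854 ± 0.122 CPM in tagBFP (SD, n = 3 each). The ETV6_WT value was above tagBFP by 1.39 ± 0.20 (edgeR adjusted p = 0.000249), and ETV6_R399C had 0.36 ± 0.21 (edgeR adjusted p = 0.238). VEGFA, the growth factor for blood vessels (chr6:43770184-43786487, plus strand), had 19.8, 15.5 and 18.4 CPM in the ETV6_WT libraries, 30.1, 29.6 and 23.3 CPM in ETV6_R399C and 25.8, 22.7 and 25.0 CPM in tagBFP. Here ETV6_WT was below all other libraries of the experiment while ETV6_R399C overlapped tagBFP. Its log2 fold changes against tagBFP were -0.46 ± 0.11 (edgeR adjusted p = 0.00633) with ETV6_WT and 0.18 ± 0.10 (edgeR adjusted p = 0.211) with ETV6_R399C. The ETV6_WT call of VEGFA was lost with average transcript lengths in the fit (edgeR adjusted p = 0.0779).

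BNIP3 and BNIP3L, a related pair of receptors for the removal of mitochondria, went in opposite directions. BNIP3 (chr10:131966455-131982013, minus strand) had 28.4, 25.4 and 24.6 CPM in the ETV6_WT libraries, 23.0, 24.5 and 24.2 CPM in ETV6_R399C and 28.9, 29.8 and 29.9 CPM in tagBFP. Every ETV6 library was below every tagBFP library, by -0.18 ± 0.057 (edgeR adjusted p = 0.0293) with ETV6_WT, lost in 5 of 12 alternatives, and -0.31 ± 0.057 (edgeR adjusted p = 0.00119) with ETV6_R399C. BNIP3 pseudogenes held reads amounting to at most 15.372% of the gene's own. BNIP3L had 94.1, 87.3 and 89.0 CPM in the ETV6_WT libraries, 97.2, 95.5 and 93.2 CPM in ETV6_R399C and 83.3, 83.4 and 84.7 CPM in tagBFP. Every ETV6 library was above every tagBFP library, by 0.10 ± 0.034 (edgeR adjusted p = 0.0316) with ETV6_WT, lost in 9 of 12 alternatives, and 0.19 ± 0.034 (edgeR adjusted p = 0.001) with ETV6_R399C. The remaining genes had no call against tagBFP. PDK1, a kinase that keeps pyruvate out of mitochondria, had 0.06 with ETV6_WT and 0.14 with ETV6_R399C, its relative PDK3 had -0.10 and -0.04, and KDM3A, a histone demethylase, had 0.01 and 0.10. MXI1, a MYC antagonist, had -0.29 and -0.11, ERO1A, an oxidase of the endoplasmic reticulum, had -0.07 and -0.10, and ANKRD37 had -0.23 and -0.34, with adjusted p-values of 0.0635 to 0.881 over these 12 edgeR tests.

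Between the ETV6 forms, 1 hypoxia-response gene was higher and 2 were lower in ETV6_WT than in ETV6_R399C, with a median of -0.077. Of all genes 12.1% were higher and 9.29% lower, so these counts lie near the background. VEGFA showed the larger of the 2 lower differences, at -0.63 ± 0.11 (edgeR adjusted p = 0.00185), with the 3 ETV6_WT libraries at 15.5 to 19.8 CPM and the 3 ETV6_R399C libraries at 23.3 to 30.1 CPM. EGLN1 was lower by a small margin, at -0.12 ± 0.036 (edgeR adjusted p = 0.034), a call lost in 6 of 12 alternatives, and ADM was higher at 1.03 ± 0.20 (edgeR adjusted p = 0.00383). Without library 3 of ETV6_WT, or without library 1 or 2 of ETV6_R399C, 1 gene was lower, and without library 2 of ETV6_R399C 2 were higher.

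**Figure D4:**
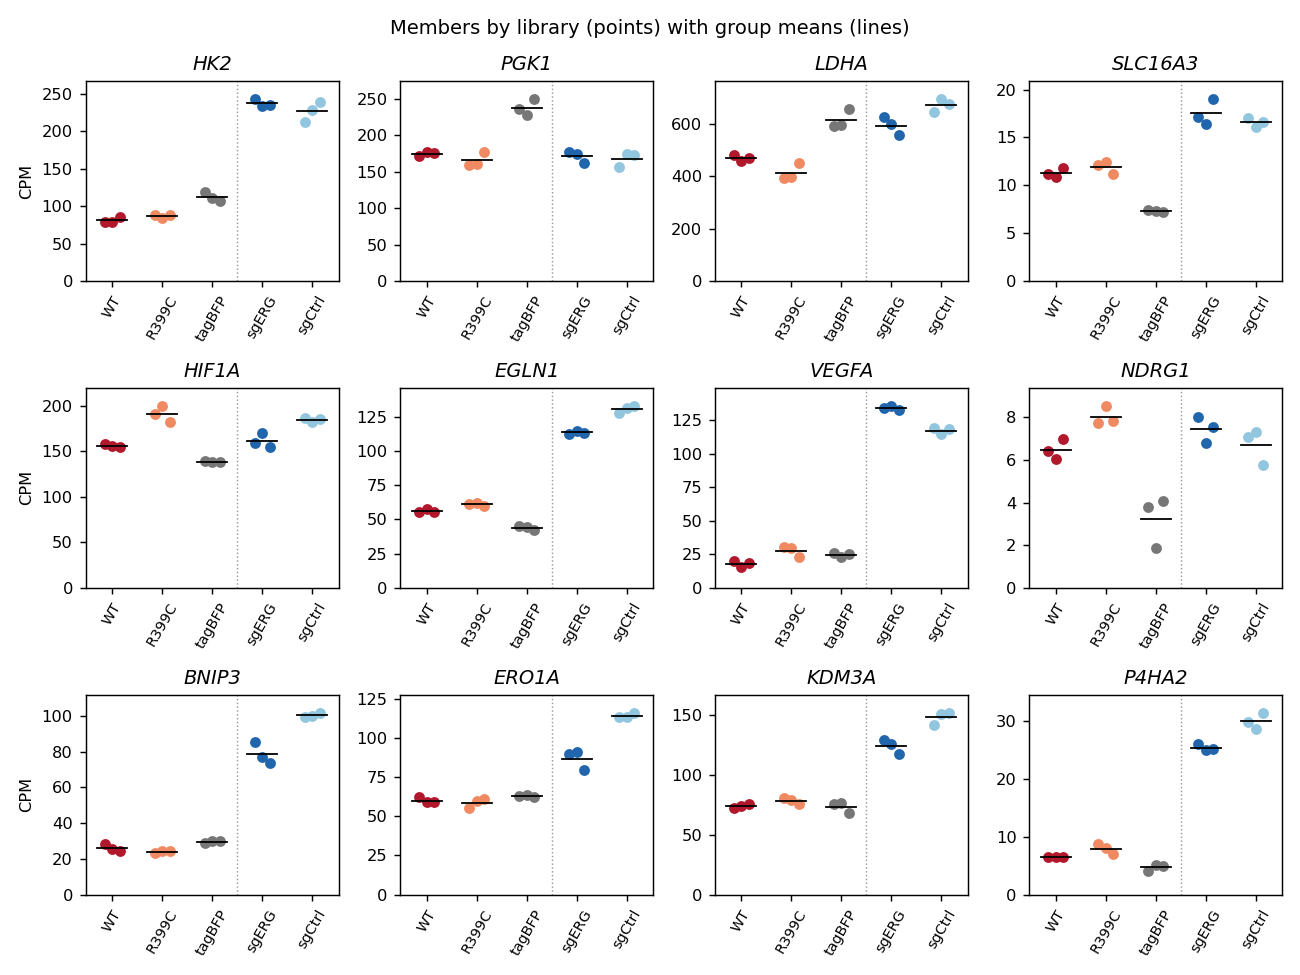
CPM of 12 of the genes in every library (points) with the group means (lines), for the ETV6_WT, ETV6_R399C and tagBFP libraries left of the dotted line and the sgERG and sgCtrl libraries right of it. CPM start at 0 in each panel; the tagBFP points lie above both ETV6 groups for HK2, PGK1 and LDHA and below them for SLC16A3, HIF1A, EGLN1 and NDRG1, and the sgERG points lie below sgCtrl for BNIP3, ERO1A and KDM3A.

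Part of the hypoxia response was lower where ERG was silenced. All 15 genes were tested, 6 were lower and 1 higher in sgERG than in sgCtrl, and the median log2 fold change was -0.173 beside 0.001 over all genes, of which 7.74% were lower and 6.89% higher. ERO1A, which reoxidizes the enzyme that forms disulfide bonds (chr14:52639916-52695900, minus strand), had 89.8, 90.8 and 79.7 CPM in the sgERG libraries and 113, 113 and 116 CPM in sgCtrl. BNIP3 had 85.3, 76.8 and 73.6 CPM in the sgERG libraries and 99.2, 99.9 and 101.7 CPM in sgCtrl. In both, every sgERG library was below every sgCtrl library and library 3 of sgERG was the lowest. The log2 fold change was -0.40 ± 0.053 (edgeR adjusted p = 0.000635) for ERO1A and -0.35 ± 0.055 (edgeR adjusted p = 0.00168) for BNIP3. BNIP3L had 200.4, 205 and 171 CPM in the sgERG libraries and 228, 229 and 233 CPM in sgCtrl, with library 3 of sgERG lowest again, at -0.26 ± 0.062 (edgeR adjusted p = 0.0188). KDM3A had 129, 126 and 118 CPM in the sgERG libraries and 142, 151 and 152 CPM in sgCtrl, at -0.25 ± 0.048 (edgeR adjusted p = 0.0051). Both were separate between the guides, and the BNIP3L call was lost without any one of the 3 sgCtrl libraries.

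EGLN1 and P4HA2, hydroxylases of HIF and of collagen, fell as well. EGLN1 had 113, 115 and 114 CPM in the sgERG libraries and 128, 132 and 133 CPM in sgCtrl, at -0.20 ± 0.038 (edgeR adjusted p = 0.00525). P4HA2 had 26.1, 25.1 and 25.2 CPM in the sgERG libraries and 29.9, 28.6 and 31.5 CPM in sgCtrl, at -0.24 ± 0.059 (edgeR adjusted p = 0.0224). No library of either gene crossed between the guides, and P4HA2 lost its call in 5 of 12 alternatives. P4HA1 had 68.0, 68.0 and 53.9 CPM in the sgERG libraries and 71.4, 75.8 and 78.4 CPM in sgCtrl and missed the threshold at -0.25 ± 0.082 (edgeR adjusted p = 0.0723), with 1 low sgERG library. VEGFA was the 1 gene of the set that rose, with 134, 136 and 132 CPM in the sgERG libraries and 119, 114 and 119 CPM in sgCtrl, and the groups did not overlap. Its log2 fold change was 0.19 ± 0.038 (edgeR adjusted p = 0.00728), a call lost in 2 of 12 alternatives, with all 15 libraries in the fit and with average transcript lengths in it. NDRG1 had 8.04, 6.79 and 7.55 CPM in the sgERG libraries and 7.10, 7.30 and 5.76 CPM in sgCtrl and overlapped, at 0.15 ± 0.12 (edgeR adjusted p = 0.425). PDK1 had -0.11, PDK3 -0.03, ADM -0.17, ANKRD37 -0.06, MXI1 0.01 and EGLN3 0.28, all without a call. Without library 3 of sgERG the set still had 6 genes lower and 1 higher.

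Regulators of HIF and further hypoxia targets were counted from 2 other lists. Of 17 regulators, 2 were higher and 2 lower in ETV6_WT, 4 higher and 5 lower in ETV6_R399C, and 0 of 16 were called in sgERG by edgeR or DESeq2, with 1 higher and 1 lower at an unadjusted edgeR p under 0.05. Among all genes tested, 17.6% were higher and 18.9% lower in ETV6_WT and 18.8% higher and 22.1% lower in ETV6_R399C. In sgERG 6.89% of all genes were higher and 7.74% lower. Of the regulators tested, 23.5% were called with ETV6_WT, beside 36.5% of all genes. With ETV6_R399C 52.9% were called, beside 40.9% of all genes, and with sgERG 0%, beside 14.6%. EPAS1, a further HIF alpha subunit counted in this list, rose with ETV6_WT at 0.84 ± 0.21 (edgeR adjusted p = 0.0079). With ETV6_R399C, EPAS1 had -0.05 ± 0.22 (edgeR adjusted p = 0.888). Its level was low, with a mean of 2.098 CPM over the 9 induction libraries. CITED2, which competes with HIF for its coactivators, rose with both forms, at 0.29 ± 0.060 (edgeR adjusted p = 0.00292) with ETV6_WT and 0.41 ± 0.059 (edgeR adjusted p = 0.000206) with ETV6_R399C, and the coactivator EP300 rose with ETV6_R399C at 0.26 ± 0.045 (edgeR adjusted p = 0.000677). HSP90AB1, a chaperone of HIF1A, fell with both, at -0.27 ± 0.031 (edgeR adjusted p = 5.04e-05) and -0.38 ± 0.031 (edgeR adjusted p = 3.54e-06), and ELOC, part of the ligase that removes HIF1A, fell with both too, at -0.19 with ETV6_WT (edgeR adjusted p = 0.013) and -0.28 with ETV6_R399C (edgeR adjusted p = 0.00109). Between the ETV6 forms, SIAH2 at -0.20 and EP300 at -0.19 were lower with ETV6_WT. EPAS1 at 0.89 ± 0.21 (edgeR adjusted p = 0.0117), CUL2 at 0.24 and HSP90AB1 at 0.11 were higher with ETV6_WT. Of the further hypoxia targets, 7 of 23 tested were higher and 5 lower in ETV6_WT, 6 higher and 4 lower in ETV6_R399C, and 1 of 24 higher and 11 lower in sgERG, with medians of -0.02, 0.052 and -0.202. In the same order, 52.2%, 43.5% and 50% of them were called, beside 36.5%, 40.9% and 14.6% of all genes. The ETV6_R399C share thus lies near the background. PPFIA4 rose with both ETV6 forms, at 0.83 ± 0.071 (edgeR adjusted p = 4.17e-06) and 0.64 ± 0.072 (edgeR adjusted p = 3.45e-05), and MIF, a cytokine, fell, at -0.33 ± 0.053 (edgeR adjusted p = 0.000493) and -0.55 ± 0.053 (edgeR adjusted p = 1.07e-05). TFRC, the transferrin receptor, fell with both as well, at -0.47 ± 0.057 (edgeR adjusted p = 7.01e-05) with ETV6_WT and -0.40 ± 0.057 (edgeR adjusted p = 0.000185) with ETV6_R399C. CXCR4, a chemokine receptor, rose with ETV6_R399C at 0.29 ± 0.024 (edgeR adjusted p = 3.46e-06) and had -0.02 with ETV6_WT (edgeR adjusted p = 0.557), and the forms differed by -0.32 (edgeR adjusted p = 5.41e-06). DDIT4, an inhibitor of mTORC1, differed between the forms, at -0.98 ± 0.090 (edgeR adjusted p = 1.98e-05) for ETV6_WT over ETV6_R399C, with 91.1 ± 4.82 CPM against 179.7 ± 26.4 CPM (SD, n = 3 each). With sgERG, ANGPTL4 fell by 1.82-fold and BHLHE40, a transcriptional repressor, by 1.78-fold (edgeR adjusted p = 0.000104 and 0.00038), and NFIL3 and RSBN1 had -0.27 and -0.40. The 1 higher gene in that comparison, named after its value was seen, was DDIT4 at 0.24 ± 0.043 (edgeR adjusted p = 0.00464).

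The 2 perturbations were set against each other in 1 fit of all 15 libraries, as the ETV6_WT effect minus the sgERG effect, a contrast chosen after the single comparisons were seen. Each effect is taken against its own control, and the experiments also differ in duration. Of the 21 glycolytic members, 13 had a lower and 3 a higher value in the ETV6_WT effect, with a median difference of -0.218, and of the 15 hypoxia-response genes 1 was lower and 7 higher, with a median of 0.267. Among all 14969 genes tested, 15.7% were lower and 14.3% higher, 30% in all. HK2 differed by -0.54 ± 0.066 (edgeR adjusted p = 1.32e-05), PGK1 by -0.48 ± 0.072 (edgeR adjusted p = 0.000105), PFKP by -0.44 ± 0.050 (edgeR adjusted p = 5.79e-06) and TPI1 by -0.40 ± 0.059 (edgeR adjusted p = 9.5e-05). For members with called effects of opposite sign in the single comparisons, a difference here follows from those calls, and its values are given as a description. EGLN1 differed by 0.56 ± 0.047 (edgeR adjusted p = 2.25e-07), P4HA2 by 0.70 ± 0.12 (edgeR adjusted p = 0.000262), HIF1A by 0.36 ± 0.054 (edgeR adjusted p = 9.73e-05), BNIP3L by 0.36 ± 0.074 (edgeR adjusted p = 0.00169) and VEGFA by -0.65 ± 0.12 (edgeR adjusted p = 0.00055). ERO1A and KDM3A, which had no call with ETV6_WT, differed by 0.33 ± 0.067 (edgeR adjusted p = 0.00147) and 0.27 ± 0.066 (edgeR adjusted p = 0.00604). BNIP3 was lower under both perturbations, and its difference of 0.17 ± 0.079 (edgeR adjusted p = 0.119) missed the threshold, as did those of PFKM at -0.10 ± 0.052 (edgeR adjusted p = 0.148) and GAPDH at 0.12 ± 0.047 (edgeR adjusted p = 0.071).

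Levels per transcript length show the scale of each gene. In TPM, GAPDH averaged 3788 in ETV6_WT, 3543 in ETV6_R399C, 3814 in tagBFP, 3656 in sgERG and 3995 in sgCtrl. LDHB, PKM and LDHA each averaged more TPM than ALDOA in every group. GAPDH, ENO1 and ALDOA together held 52.15% to 58.96% of the TPM of the 21 glycolytic members. That sum was 8768 to 8834 TPM in ETV6_WT, 8253 to 8723 in ETV6_R399C and 9796 to 9960 in tagBFP, so both ETV6 groups stood below tagBFP. It was 10835 to 11334 TPM in sgERG and 11236 to 11847 in sgCtrl, which overlapped. The 15 hypoxia-response genes summed to far less, 190.9 to 197.3 TPM in ETV6_WT, 211.3 to 220.1 in ETV6_R399C and 188.3 to 202.4 in tagBFP, and 545.8 to 619.7 TPM in sgERG and 640.3 to 657.3 in sgCtrl. Their sum was higher in ETV6_R399C than in every library of the other induction groups, and lower in every sgERG library than in every sgCtrl library. TPM of all libraries come from the same kind of file, but the 2 experiments share no group, so differences between them cannot be told apart from the experiment.

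Hypoxia-response genes stood at other levels in the 2 experiments. In all 6 interference libraries, 12 of the 15 genes were above all 9 induction libraries, 3 overlapped and 0 were below. Of 12540 genes with a mean of at least 1 TPM, 29.3% were above and 24.1% below by the same count. EGLN3, counted among the 12 and in the median ratio below, lay under that mean. It averaged 0.449 TPM in ETV6_WT, 0.270 in ETV6_R399C, 0.0158 in tagBFP, 1.69 in sgERG and 1.34 in sgCtrl. The median ratio of sgCtrl to tagBFP was 3.813 for the hypoxia-response genes, 1.364 for the glycolytic members and 1.07 for all genes. VEGFA averaged 88.1 TPM in sgCtrl against 13.5 in tagBFP, BNIP3 131 against 34.3, and PDK1 30.7 against 7.36. Among the glycolytic members 13 were above, 5 overlapped and 3 were below, namely GPI, PGK1 and PGAM1. For PGK1 this holds for the sum of all transcripts and not for its protein-coding transcript. The latter averaged 30.1 TPM in ETV6_WT, 29.3 in ETV6_R399C and 41.0 in tagBFP, and 39.3 in sgERG and 37.8 in sgCtrl. BNIP3 and ERO1A, lower in sgERG than in sgCtrl, still averaged 103.8 and 35.1 TPM in sgERG, against 34.3 and 27.4 TPM in tagBFP.

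**Figure D5:**
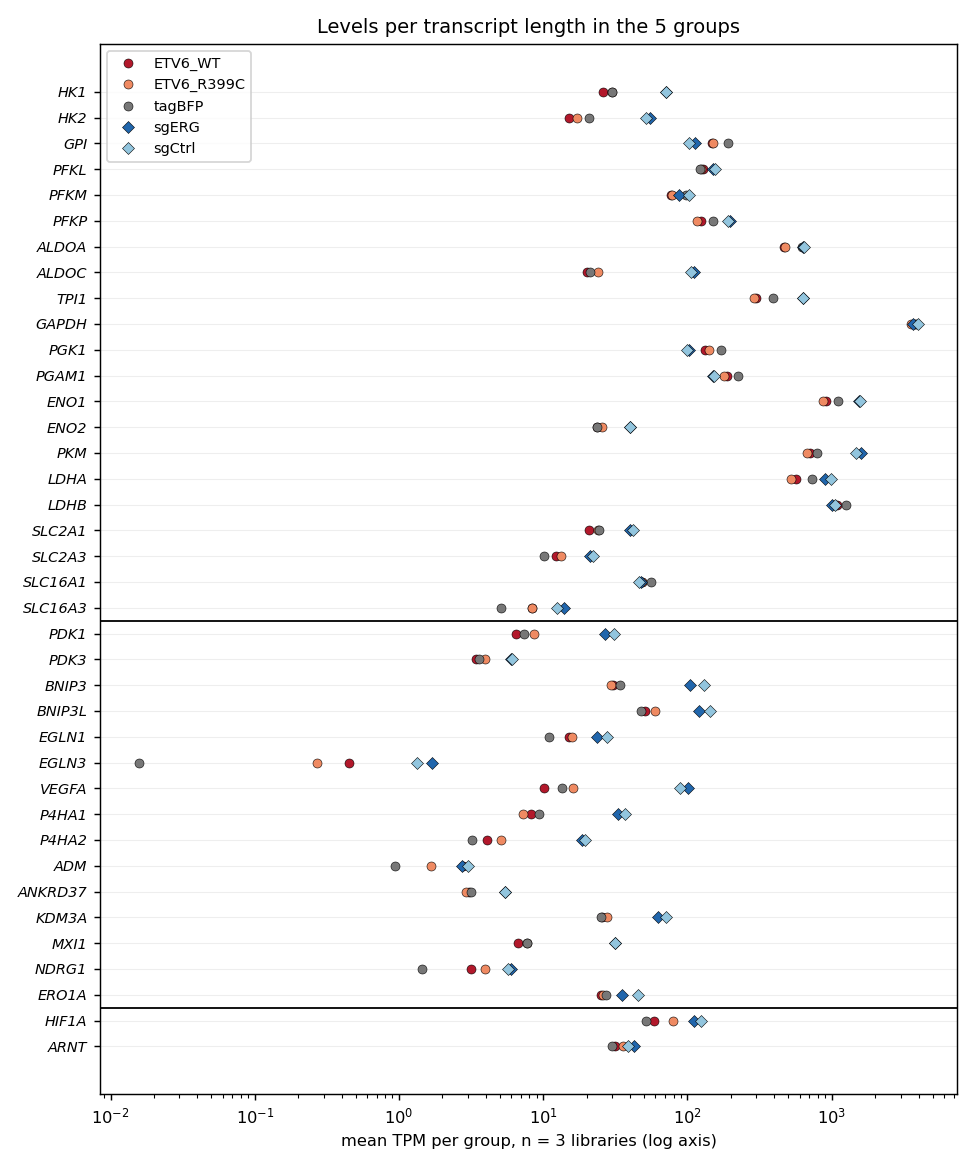
Mean TPM of each gene in the 5 groups (n = 3 libraries each) on a log axis, with circles for ETV6_WT, ETV6_R399C and tagBFP and diamonds for sgERG and sgCtrl. For 12 of the 15 hypoxia-response genes between the black lines, all interference libraries were above all induction libraries; the glycolytic genes span from about the level of SLC16A3 to that of GAPDH.

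The promoters of members that moved were read for the core of the hypoxia response element, ACGTG or GCGTG on either strand, for the E-box CACGTG that MYC can bind, which contains ACGTG on both strands, and for CCGGAAG, a core that ETS factors bind. RefSeq entries (GRCh38.p14) matched 33 of the 38 genes, and the 250 bases before each gene's start were used. LDHA, TPI1, BNIP3 and HIF1A are shown for these reasons. LDHA and HIF1A were called in all 4 comparisons, TPI1 had the largest change among the members called in 3 whose start both annotations share, and BNIP3, chosen after its values were seen, held the most core matches. EGLN1, called in 4, and P4HA2, called in 3, are left out because the annotations place their starts apart, and VEGFA is named only. Each sequence ends before the start of the gene's leading transcript, and capitals mark the hypoxia core matches, both strands, read 5′ to 3′ on the gene's strand. LDHA is at chr11:18394313-18394559 (plus strand), TPI1 at chr12:6867281-6867530 (plus), BNIP3 at chr10:131982014-131982173 (minus) and HIF1A at chr14:61695263-61695512 (plus).
LDHA: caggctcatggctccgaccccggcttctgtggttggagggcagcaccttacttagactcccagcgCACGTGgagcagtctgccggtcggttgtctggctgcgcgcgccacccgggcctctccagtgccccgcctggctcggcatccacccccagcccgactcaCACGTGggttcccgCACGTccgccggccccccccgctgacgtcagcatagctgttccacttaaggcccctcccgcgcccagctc
TPI1: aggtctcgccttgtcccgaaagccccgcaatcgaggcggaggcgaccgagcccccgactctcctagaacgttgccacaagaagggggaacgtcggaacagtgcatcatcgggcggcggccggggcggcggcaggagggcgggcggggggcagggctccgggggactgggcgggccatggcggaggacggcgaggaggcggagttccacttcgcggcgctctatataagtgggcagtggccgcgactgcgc
BNIP3: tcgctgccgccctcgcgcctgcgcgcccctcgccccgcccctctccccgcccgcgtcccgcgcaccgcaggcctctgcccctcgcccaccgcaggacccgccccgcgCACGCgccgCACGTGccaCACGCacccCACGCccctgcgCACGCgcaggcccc
HIF1A: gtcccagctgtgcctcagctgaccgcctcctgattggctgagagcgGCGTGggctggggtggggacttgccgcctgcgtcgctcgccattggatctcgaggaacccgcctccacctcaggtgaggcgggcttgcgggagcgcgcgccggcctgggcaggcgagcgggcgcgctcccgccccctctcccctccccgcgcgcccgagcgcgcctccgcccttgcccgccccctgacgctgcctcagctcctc
LDHA, lower with both ETV6 forms and with sgERG, held 5 matches, 4 of which came from its 2 E-boxes. BNIP3, lower in the same 3 comparisons, held 6 matches and 1 E-box. TPI1, lower with both ETV6 forms, held 0 matches, and HIF1A held 1. A match describes the letters and is not a bound site. Over the sets, 10 of 12 hypoxia-response promoters (83.3%) and 11 of 19 glycolytic promoters (57.9%) held a hypoxia core, against 43.2% of 35116 promoters. An E-box was in 5 of 33 member promoters (15.2%), against 6.34% of all, and the ETS core in 3 of 33 (9.09%), against 8.52% of all. For 4 of the 33 genes, EGLN1, PFKM, PGAM1 and P4HA2, the RefSeq start lay 766 to 3417 bases from the start of the leading transcript. For KDM3A, GAPDH, PFKP, ADM, ANKRD37 and SLC2A1 it lay 308 to 534 bases away, which is also more than the 250 bases read.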

How the data were processed

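RNA was measured in 15 libraries of Reh cells made with a strand-marking kit, per the labels' protocols. The authors deposited Salmon transcript tables; the submitters' processing notes name Salmon 0.11.3 and hg38, while its strand and bias settings are not stated in the sources used here. Each deposited table holds estimated counts per transcript, TPM, which sum to the same total in every library, and an effective length per transcript. For each gene of GENCODE release 29, these estimated counts were added up across its transcripts and rounded to whole numbers; transcripts without a match to that release held 6.67% to 7.56% of the reads and stayed out of library sizes and tests. Deposited TPM were summed per gene and served for levels only.

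Genes that passed edgeR's filter on low counts (filterByExpr) were scaled by TMM and tested with edgeR 4.0.16 in R 4.3.3 (quasi-likelihood test, Benjamini-Hochberg adjustment over all genes tested, threshold 0.05). The 9 induction libraries formed 1 fit of 14242 genes and the 6 interference libraries another of 13464. The tests were checked on simulated data first. CPM are counts scaled by TMM library sizes, and errors are SD over 3 libraries or the standard error of the fit. The labels do not say that replicates are separate cultures, so p-values measure only the spread between these libraries, which may be technical; no 2 libraries of a group agreed within sampling noise. Same-numbered libraries did not deviate together. Values in every library are given for the HIF subunits, for up to 5 called members per set and comparison with the largest change and a mean of at least 5 CPM, and for members called in both directions; genes of other lists are those with the smallest p, up to 4 per list and comparison. EPAS1 was named in addition to these between the ETV6 forms. The members and lists were chosen with earlier results of these data known. Alternatives were the size factors and the Wald test of DESeq2 1.42.0, no filter, a replicate block, average transcript lengths as an offset, other libraries in the fit, and each library left out in turn.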

Additional observations from a re-analysis of the deposited data

How the results depend on the processing

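The counts of lower glycolytic members held in both ETV6 comparisons, at 15 for ETV6_WT and 14 to 16 for ETV6_R399C with any library left out, and no alternative turned the direction of a called member except ENO2 in ETV6_WT over tagBFP, at -0.005 with average transcript lengths; sign changes among uncalled members were not counted. With these lengths as an offset, genes changed numbered 2913 in ETV6_WT and 3427 in ETV6_R399C against tagBFP, 1236 between the ETV6 forms and 2647 for the ETV6_WT minus sgERG difference. Under the same offset, ETV6_WT against tagBFP had 1 glycolytic member higher and 3 hypoxia-response genes higher with 0 lower; ETV6_WT against ETV6_R399C had 2 glycolytic members higher and 0 lower, and 0 hypoxia genes higher and 1 lower; sgERG had 0 hypoxia genes higher; and the difference had 4 hypoxia genes higher. The cause was not tested. The DESeq2 test gave 1 hypoxia gene lower in ETV6_WT against tagBFP and 1 between the ETV6 forms. No filter gave 2 hypoxia genes higher between the ETV6 forms, the 6-library fit 2 glycolytic members lower there, and the 15-library fit 0 hypoxia genes higher with sgERG.

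Replicate numbers do not pair the libraries (correlations of same-numbered deviations -0.097 to 0.075). The replicate block gave 1 hypoxia gene lower in ETV6_WT against tagBFP and 1 glycolytic member lower with sgERG, and 5086, 5656, 2973 and 1536 genes changed in ETV6_WT and ETV6_R399C against tagBFP, between the ETV6 forms and with sgERG.

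With 1 library left out, genes changed ranged from 4322 to 4813 in ETV6_WT, 4865 to 5594 in ETV6_R399C, 2008 to 3110 between the ETV6 forms (2008 without ETV6_R399C library 1, 2009 without ETV6_WT library 2), 1160 to 2302 in sgERG (1160 without sgCtrl library 1, 1162 without library 3) and 3899 to 4491 for the difference. Higher glycolytic members ranged from 1 to 3 in ETV6_WT, 1 to 3 in ETV6_R399C and 2 to 13 between the forms, and lower ones from 1 to 3 in sgERG. Lower hypoxia genes ranged from 1 to 3 in ETV6_WT, 1 to 3 between the forms and 4 to 6 in sgERG, and higher ones from 1 to 2 between the forms. Alternatives for the difference were chosen after seeing the data; DESeq2 and other library sets were not run for it. Depth limits EGLN3, ADM and ANKRD37, all low.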
